A study of Mus musculus with 6 samples.

Results

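The fatty acid beta-oxidation enzymes described here are 9 mouse genes: Acadl, Acadm, Acads, Acadvl, Cpt1a, Cpt2, Hadha, Hadhb and Etfdh. They were chosen by name, matched to the files through their Entrez numbers, and are 9 of the 14574 genes listed in any library. The set was drawn up because Acadl was known to be lower in Cd28 knockout macrophages. The difference of Acadl is therefore a description with no test, and the question is whether the rest of the pathway shares it. The samples were bone marrow-derived macrophages, cells grown from femoral marrow with the growth factor M-CSF, from Cd28 KO mice and from wild-type (WT) C57BL/6J mice, with 3 libraries per group. Mice of both groups were 6 to 10 weeks old, and all cultures ran for 7 days in 10% serum with human M-CSF at 25 ng/ml, renewed every 2 days, with no further treatment. No label ties a replicate number to an animal, so p-values reflect the spread among these libraries, which may be technical. The sources used here give neither the sex of the mice nor the design of the Cd28 allele.

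Beta-oxidation shortens fatty acids inside mitochondria and yields acetyl-CoA and electrons for the respiratory chain. Acyl-CoA is made at the outer membrane, carried inward as acylcarnitine, and then passes through repeated rounds of dehydrogenation, hydration, a second oxidation and thiolysis. The acyl-CoA dehydrogenases open each round and differ in the chain length they prefer. In macrophages the pathway is best known as a fuel route linked to alternative activation.

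All 9 members were listed in all 6 libraries, and all passed the filter of a mean of at least 1 FPKM (fragments per unit of transcript length and of library size) that left 10172 genes for testing. Libraries listed 12768 to 13327 genes, and the number of reads behind them is unknown. Replicate 3 of either genotype lay far from the other libraries on principal component 1, which held 73.8% of the variance, at 34.8 in Cd28 KO and 36.1 in WT, against -18.2 and -17.7 in the other Cd28 KO libraries and -17.4 and -17.5 in the other WT libraries. Cd28 itself stood at 25.7, 24.2 and 26.9 FPKM in Cd28 KO and at 38.2, 30.1 and 51.1 FPKM in WT, lower in every Cd28 KO library but listed in all of them (exact two-sided permutation p = 0.1, the smallest that 3 against 3 allows). Which exons the reads came from is not visible in 1 value per gene, so this checks the labels only in part. All 10 macrophage markers were listed, summing to 18388 to 20775 FPKM in Cd28 KO and 17692 to 18590 FPKM in WT. Of 6 adipocyte markers, Plin1, Cidec and Cfd were at 0 in all libraries. The sum of the 6 did not exceed 0.19 FPKM in Cd28 KO or 0.12 FPKM in WT. Markers of neutrophils, B cells, T cells, erythroid, stromal and dendritic cells were summed separately for each cell type. Each of these sums was at most 8.88 FPKM in any library. Cd4 at 6.42 FPKM or less and S100a8 at 4.44 FPKM or less were the highest genes.

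Acadl, the dehydrogenase that takes long-chain and branched acyl-CoA in mouse, was lower in Cd28 KO macrophages. Acadl (Entrez 11363, chromosome 1, 66830839 to 66863309, GRCm38) stood at 27.7, 25.9 and 26.8 FPKM in the Cd28 KO libraries and at 45.8, 51.2 and 41.0 FPKM in the WT libraries. The Cd28 KO libraries lay close together, the WT libraries were spread more widely, and the groups did not overlap. Of all tested genes, 2.87% had all their Cd28 KO values below all their WT values. Acadl averaged 26.8 ± 0.866 FPKM in Cd28 KO, against 46.0 ± 5.10 FPKM in WT (SD, n = 3 each), and the Cd28 KO mean was 58.3% of the WT mean. The log2 difference of Acadl, on the log2(FPKM + 1) scale used for all log2 differences here, was -0.75 ± 0.11 (SE). Between same-numbered libraries it was -0.71, -0.95 and -0.59 for replicates 1, 2 and 3. It was -0.83 without the replicate 3 libraries. Of the 10172 tested genes, 9 had a more negative difference than Acadl. In bulk samples, fewer cells holding a transcript and less of it per cell cannot be told apart.

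**Figure D1:**
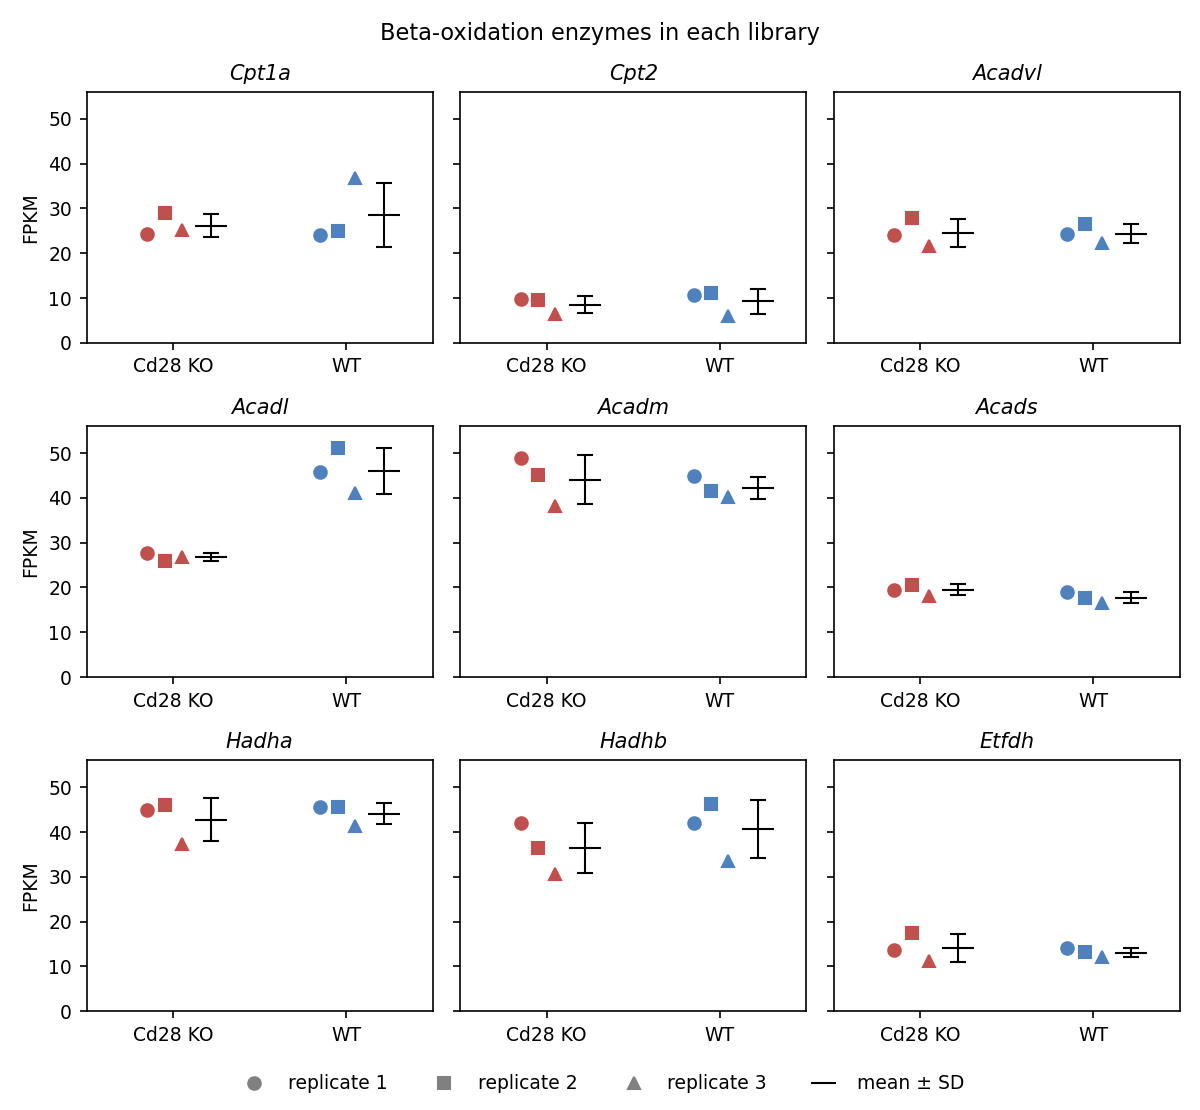
Level of each of the 9 members in FPKM (vertical axis, from 0) in the Cd28 KO and WT libraries, with 1 symbol per replicate number and the mean ± SD (n = 3) beside the points. The Cd28 KO points of Acadl, at 25.9 to 27.7 FPKM, lie below all its WT points, at 41.0 to 51.2 FPKM, while the groups of the other 8 members overlap.

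The promoter windows of the 4 chain-length dehydrogenases are shown because Acadl differed between the genotypes while its closest relatives overlapped. Each runs from 250 bases before to 50 bases after the annotated start (RefSeq, GRCm38.p6), 5′ to 3′ on the gene's own strand, which is the minus strand in all 4. Acadl is at chr1:66863260-66863559, Acadm at chr3:153944594-153944893, Acads at chr5:115119297-115119596 and Acadvl at chr11:70015379-70015678. Capitals mark the nuclear receptor half-site (AGGTCA or its reverse complement TGACCT), to which PPAR and ERR type receptors bind, and the GC box (GGGCGG or CCGCCC), to which Sp1 type factors bind.
Acadl: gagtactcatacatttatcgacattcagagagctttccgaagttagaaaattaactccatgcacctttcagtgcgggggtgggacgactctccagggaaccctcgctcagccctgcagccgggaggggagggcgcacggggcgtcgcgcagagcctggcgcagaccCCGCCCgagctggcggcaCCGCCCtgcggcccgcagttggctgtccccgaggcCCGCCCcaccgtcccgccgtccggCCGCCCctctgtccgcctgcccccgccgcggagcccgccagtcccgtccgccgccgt
Acadm: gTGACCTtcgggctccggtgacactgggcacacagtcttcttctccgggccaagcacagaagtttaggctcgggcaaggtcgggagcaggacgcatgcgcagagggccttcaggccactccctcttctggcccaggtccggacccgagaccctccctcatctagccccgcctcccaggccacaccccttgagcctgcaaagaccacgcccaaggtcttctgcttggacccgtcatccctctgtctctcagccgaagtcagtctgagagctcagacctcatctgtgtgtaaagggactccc
Acads: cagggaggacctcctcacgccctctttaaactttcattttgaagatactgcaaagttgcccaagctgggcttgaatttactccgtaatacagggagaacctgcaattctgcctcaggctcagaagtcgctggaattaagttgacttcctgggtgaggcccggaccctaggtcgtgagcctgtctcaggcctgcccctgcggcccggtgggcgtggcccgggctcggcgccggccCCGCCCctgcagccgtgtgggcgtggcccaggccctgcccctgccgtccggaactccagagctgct
Acadvl: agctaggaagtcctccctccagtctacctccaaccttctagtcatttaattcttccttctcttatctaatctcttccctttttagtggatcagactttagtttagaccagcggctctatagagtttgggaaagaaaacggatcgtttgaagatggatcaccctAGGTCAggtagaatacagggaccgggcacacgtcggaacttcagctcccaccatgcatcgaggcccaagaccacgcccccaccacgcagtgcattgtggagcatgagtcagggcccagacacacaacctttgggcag
The Acadl window held 4 GC boxes and 0 half-sites in these letters. Acadm and Acadvl held 1 half-site and 0 GC boxes each, and Acads held 1 GC box and 0 half-sites. Among all 32851 RefSeq windows of this length, 16.3% held a half-site and 35.7% a GC box. GC content was 70.3% for Acadl, 62.3% for Acadm, 62.7% for Acads and 50.7% for Acadvl, against a median of 52.7% over all windows. The windows of all 9 members were found. Besides Acadm and Acadvl, Cpt1a held a half-site. GC boxes numbered 4 in Hadhb, as in Acadl, 3 each in Cpt1a and Cpt2, and 1 each in Acads, Hadha and Etfdh. These are matches of letters and not mapped binding sites, and a half-site or GC box spelled differently would not be counted.

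The other 3 chain-length dehydrogenases did not share the lower level of Acadl. Acadm, the medium-chain enzyme, stood at 48.9, 45.1 and 38.1 FPKM in Cd28 KO and at 44.9, 41.6 and 40.2 FPKM in WT. Acads, the short-chain enzyme, stood at 19.5, 20.6 and 18.2 FPKM in Cd28 KO and at 19.0, 17.6 and 16.6 FPKM in WT. Acadvl, the very long-chain enzyme of the inner membrane, stood at 24.1, 27.96 and 21.7 FPKM in Cd28 KO and at 24.3, 26.5 and 22.3 FPKM in WT. The 2 groups overlapped for each of these genes. Their log2 differences were 0.05 for Acadm (95% interval -0.23 to 0.34), 0.13 for Acads (-0.15 to 0.40) and 0.01 for Acadvl (-0.31 to 0.32). With limma's two-sided test and Benjamini-Hochberg adjustment over all 10172 genes, a gene counted as called below 0.05, and the adjusted p was 0.9995 for all 3. Limma called 0.0% of all tested genes lower and 0.0197% higher, and 253 genes had an unadjusted p below 0.05. Cd28 itself, at a log2 difference of -0.59, also had a limma adjusted p of 0.9995. A gene that was not called is therefore not shown to be unchanged. The sign for Acadm and Acadvl turned on the TPM scale, where all libraries are brought to the same total, to -0.01 and -0.05. Acad9, also involved in building respiratory complex I, had a log2 difference of -0.14, and Acad10, Acad11 and Acad12 had 0.16, 0.07 and 0.03.

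Because the 4 chain-length dehydrogenases were measured in the same libraries, the share of Acadl in their summed FPKM does not depend on how a library was scaled. Acadl took 23.0%, 21.7% and 25.6% of the sum in Cd28 KO and 34.2%, 37.4% and 34.1% in WT. The Cd28 KO shares all lay below the WT shares. Acadm took 38.2% ± 2.25 in Cd28 KO, against 32.4% ± 1.76 in WT, and Acads took 17.0% ± 0.577 in Cd28 KO, against 13.6% ± 0.737 in WT (SD, n = 3 each). Shares of a fixed sum move against each other, so these are not further differences. The ratio of Acadl to Acadm was 0.565, 0.575 and 0.704 in Cd28 KO and 1.02, 1.23 and 1.02 in WT. Sequence sharing was checked through every run of 50 bases in the GENCODE transcripts of each member. None of the 1955 runs of Acadl occurred in a transcript of any other gene, while 26.9% of the runs of Acadvl did, all of these in Dvl2, and 19.7% of those of Hadhb. Values of Acadvl and Hadhb are more uncertain for that reason, since RSEM divides shared reads by estimation.

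The carnitine palmitoyltransferases serve the entry of fatty acids into mitochondria. Their transcripts were compared, entry itself was not measured, and neither gene was called. Cpt1a, which makes acylcarnitine at the outer membrane and is the main control point of the pathway, stood at 24.3, 29.0 and 25.2 FPKM in Cd28 KO and at 24.1, 24.9 and 36.8 FPKM in WT. WT replicate 3 was the highest of the 6. The log2 difference of Cpt1a was -0.10 (95% interval -0.52 to 0.32, limma adjusted p = 0.9995), and 0.09 without WT replicate 3. Cpt2, which turns acylcarnitine back into acyl-CoA at the inner membrane, stood at 9.69, 9.52 and 6.40 FPKM in Cd28 KO and at 10.6, 11.2 and 6.07 FPKM in WT. Replicate 3 was the lowest library of each group. Its log2 difference was -0.09 with a 95% interval of -0.69 to 0.52 (limma adjusted p = 0.9995), the widest of the members. Slc25a20, the carrier that moves acylcarnitine across the inner membrane, stood at 19.2 ± 1.88 FPKM in Cd28 KO and 18.2 ± 1.20 FPKM in WT (SD, n = 3 each). The muscle form Cpt1b did not exceed 1.28 FPKM and the brain form Cpt1c 0.65 FPKM in any library.

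The mitochondrial trifunctional protein, which carries out the later steps for long chains, is made of Hadha and Hadhb. Hadha stood at 44.9, 46.0 and 37.3 FPKM in Cd28 KO and at 45.5, 45.5 and 41.4 FPKM in WT. Hadhb stood at 41.9, 36.4 and 30.8 FPKM in Cd28 KO and at 42.0, 46.4 and 33.6 FPKM in WT. The groups overlapped for both, and replicate 3 was the lowest library of each group for both. Log2 differences were -0.05 for Hadha (95% interval -0.33 to 0.23) and -0.16 for Hadhb (-0.54 to 0.23), each at a limma adjusted p of 0.9995. The 2 genes lie head to head on chromosome 5, and 228 of the bases in their promoter windows are shared. The ratio of Hadha to Hadhb was 1.18 ± 0.0985 in Cd28 KO, against 1.10 ± 0.125 in WT (SD, n = 3 each), a difference within the spread between replicates. Etfdh, which passes electrons of the dehydrogenases to ubiquinone, stood at 13.8, 17.5 and 11.2 FPKM in Cd28 KO and at 14.1, 13.1 and 12.1 FPKM in WT, with a log2 difference of 0.09 (95% interval -0.32 to 0.50, limma adjusted p = 0.9995).

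Of the 8 members other than Acadl, 4 had a negative and 4 a positive difference. Their median log2 difference was -0.02, against 0.00 over all genes tested, and the sign of 6 of the 8 turned when 1 library or another was left out. On the TPM scale 6 were negative and 2 positive, with a median of -0.08, against -0.06 over all genes. None of the 8 was called by limma, none had an unadjusted p below 0.05, and with the replicate number as a block the counts were also 0. With the block limma called 0.0393% of all tested genes lower and 0.138% higher, and 803 had an unadjusted p below 0.05. The groups did not overlap for 0 of the 8, where 2.87% of all tested genes were lower and 3.84% higher in every Cd28 KO library. The 95% intervals of the 8 reached down to between -0.15 for Acads and -0.69 for Cpt2, and without Cd28 KO replicate 1 or 2 that of Cpt2 reached -0.92. Decreases up to these bounds are within the intervals of the fit without a block. With the replicate number as a block the interval of Cpt2 was -0.35 to 0.18. With a batch term for replicate 3 it was -0.32 to 0.14. Both terms were taken from the data and not from the labels. Summed over these 8 members, the level was 227, 232 and 189 FPKM in Cd28 KO and 225, 227 and 209 FPKM in WT. That sum averaged 216 ± 23.7 FPKM in Cd28 KO and 220.0 ± 9.68 FPKM in WT, closer together than the replicates of Cd28 KO.

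The order of the members by FPKM, a level per length, placed Acadl elsewhere in the 2 genotypes. In Cd28 KO the order of means was Acadm at 44.1 FPKM, Hadha at 42.8, Hadhb at 36.4, Acadl at 26.8, Cpt1a at 26.2, Acadvl at 24.6, Acads at 19.4, Etfdh at 14.1 and Cpt2 at 8.54. In WT it was Acadl at 46.0 FPKM, Hadha at 44.1, Acadm at 42.2, Hadhb at 40.7, Cpt1a at 28.6, Acadvl at 24.4, Acads at 17.7, Etfdh at 13.1 and Cpt2 at 9.28. In Cd28 KO, Acadl overlapped its lower neighbour Cpt1a and lay below all values of its upper neighbour Hadhb. In WT, Acadl overlapped Hadha, and the 4 highest genes each overlapped the next. From Acadvl downward the order was the same in both genotypes, with no overlap between neighbours. Acadl took places 4, 6 and 4 among the members in the Cd28 KO libraries, against places 1, 1 and 2 in the WT libraries.

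The rest of the mitochondrial pathway, from lists that held 24 genes besides the members, did not move with Acadl either. Of these, 21 were tested, 17 were positive and 4 negative, and their median log2 was 0.08, against 0.00 over all genes. Leaving out WT replicate 3 gave a median of 0.05, and leaving out Cd28 KO replicate 3 gave 0.13. On the TPM scale 16 of 22 were positive with a median of 0.02, where all genes stood at -0.06. Limma called 0 of the 21 with or without the block, and 0 had an unadjusted p below 0.05 without the block and 1 with it. Every Cd28 KO library was higher than every WT library for 3 of the 21 genes and lower for 0. Over all tested genes 3.84% were higher and 2.87% lower in this way. Acsl3, an acyl-CoA synthetase, stood at 14.9, 15.4 and 15.3 FPKM in Cd28 KO and at 10.7, 14.5 and 14.7 FPKM in WT, the lowest WT library being replicate 1. Eci1, an isomerase needed for unsaturated chains, stood at 11.2, 12.5 and 10.2 FPKM in Cd28 KO and at 10.2, 8.31 and 8.69 FPKM in WT, at a limma adjusted p of 0.9995 without and 0.604 with the block. Etfa, a subunit of the flavoprotein that collects electrons from the dehydrogenases, stood at 40.8, 34.5 and 37.1 FPKM in Cd28 KO and at 34.5, 29.8 and 33.4 FPKM in WT, with limma adjusted p values of 0.9995 and 0.648. For Acsl3, Eci1 and Etfa the lowest Cd28 KO value lay only just above the highest WT value.

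**Figure D2:**
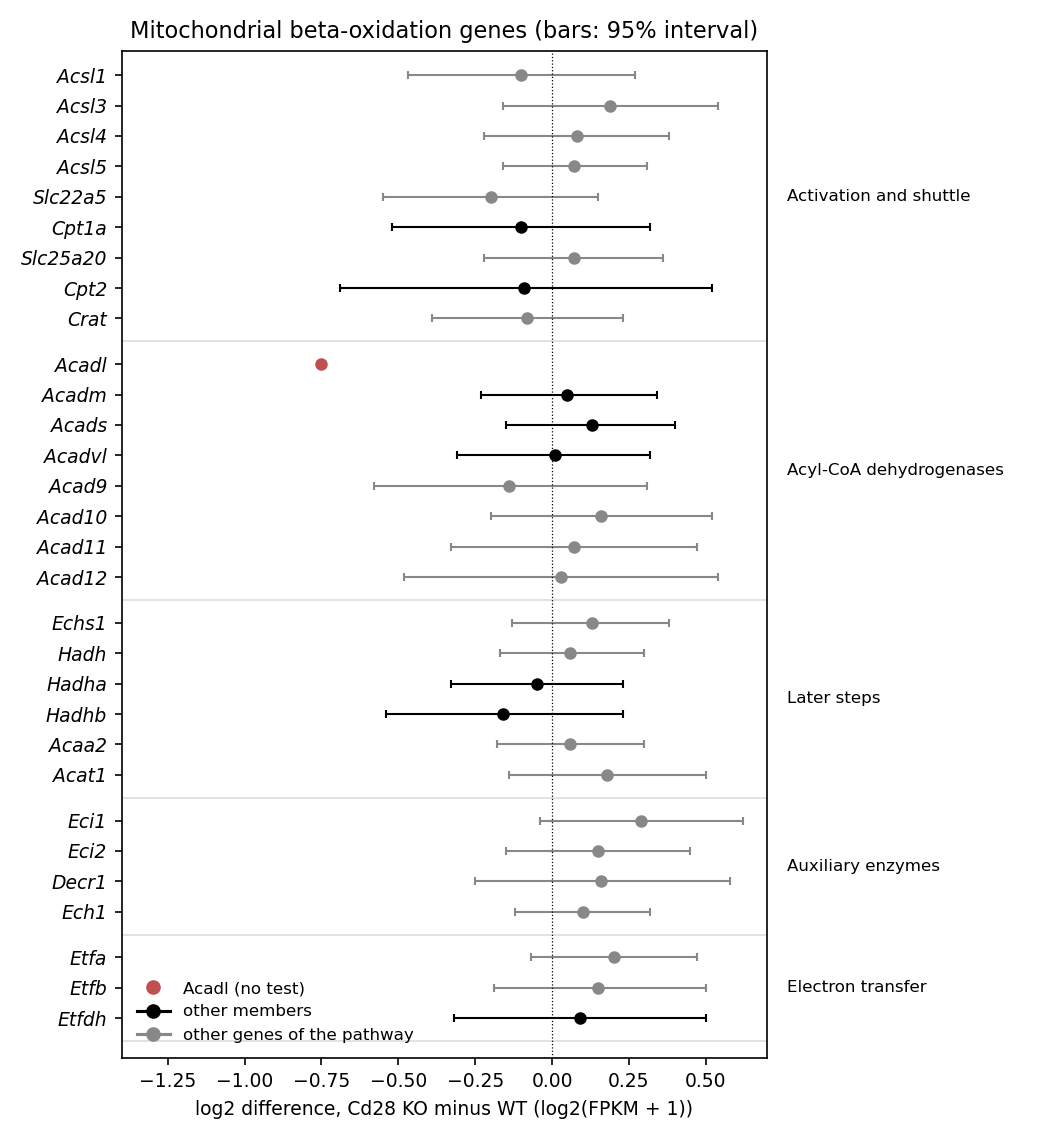
Log2 difference between Cd28 KO and WT (horizontal axis, Cd28 KO minus WT, n = 3 each) of the 30 tested genes of the mitochondrial pathway, grouped by role. Bars are limma's 95% intervals without a block. Acadl, at -0.75, stands left of the other genes, whose differences run from -0.20 to 0.29 and whose intervals all include 0.

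Among the other genes by role, the enoyl-CoA hydratase Echs1 stood at 29.7 ± 2.33 FPKM in Cd28 KO and 27.1 ± 1.33 FPKM in WT (SD, n = 3 each). The medium- and short-chain dehydrogenase of the later oxidation, Hadh, stood at 28.7 ± 1.41 FPKM in Cd28 KO and 27.4 ± 0.819 FPKM in WT. The thiolase Acaa2 stood at 27.3 ± 1.34 FPKM in Cd28 KO and 26.1 ± 0.987 FPKM in WT. Each of these differences was smaller than the spread of its replicates or close to it, and none was called. All 4 auxiliary enzymes for unsaturated chains and all 3 electron transfer genes had positive differences, with medians of 0.16 and 0.15 (0.11 and 0.10 on the TPM scale), and none was called by limma. The electron transfer median was 0.04 when WT replicate 3 was left out, 0.09 when Cd28 KO replicate 1 was, and 0.23 when Cd28 KO replicate 2 was, where Etfdh was negative. Branched-chain relatives of the dehydrogenases, which serve amino acid breakdown, had log2 differences of -0.13 for Ivd, 0.10 for Acad8, 0.17 for Acadsb and 0.07 for Gcdh.

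Peroxisomes run a separate beta-oxidation for very long and branched chains. Of 16 listed genes of that route 14 were tested, 9 were positive and 5 negative, and the median log2 was 0.10. It was 0.04 when WT replicate 3 was left out, 0.06 when Cd28 KO replicate 1 or 2 was, and 0.19 when Cd28 KO replicate 3 was, and 0.06 on the TPM scale. Scp2, which holds a thiolase of branched chains, stood at 70.0, 68.8 and 75.4 FPKM in Cd28 KO and at 64.8, 62.6 and 65.7 FPKM in WT, above WT in every Cd28 KO library (limma adjusted p = 0.9995). Acaa1a, the straight-chain thiolase, stood at 102 ± 6.26 FPKM in Cd28 KO and 87.2 ± 14.8 FPKM in WT. Over all tested genes 3.84% were higher in every Cd28 KO library, as Scp2 was. No gene of the list was called in either fit.

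Regulators of the pathway did not pass the test either. Pparg, the lipid-sensing receptor prominent in macrophages, stood at 38.5, 35.5 and 31.7 FPKM in Cd28 KO and at 40.9, 52.3 and 29.0 FPKM in WT, with overlapping groups. Ppara, the receptor that drives these genes in liver, was listed in 1 library at 0.01 FPKM, and the coactivator Ppargc1a did not exceed 0.08 FPKM. Ppard, the third receptor of the family, was higher in replicate 3 of both genotypes, at 10.4, 14.0 and 19.0 FPKM in Cd28 KO and 12.5, 11.0 and 24.2 FPKM in WT. Esrra, a nuclear receptor of mitochondrial genes, was lower in replicate 3 of both, at 21.1, 21.1 and 12.1 FPKM in Cd28 KO and 20.0, 20.6 and 10.3 FPKM in WT. Tfeb, a factor for lysosomal and lipid breakdown genes, stood at 37.1 ± 1.00 FPKM in Cd28 KO and 42.0 ± 5.91 FPKM in WT. Sirt3, the mitochondrial deacetylase, stood at 6.08 ± 0.862 FPKM in Cd28 KO and 5.19 ± 0.542 FPKM in WT (SD, n = 3 each). Of the 11 tested regulators 8 were negative, with a median of -0.09, which was 0.00 without the replicate 3 libraries. Leaving out Cd28 KO replicate 3 gave 0.01 and Cd28 KO replicate 1 gave -0.05, while leaving out WT replicate 2 gave -0.04 and WT replicate 3 gave -0.06. Without WT replicate 1 the median was -0.13, and without Cd28 KO replicate 2 it stayed at -0.09. On the TPM scale 10 of 12 were negative with a median of -0.14, where all genes stood at -0.06.

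Most genes that bring in or make fatty acids had negative differences, and none was called. Over all 10172 tested genes 5174 were negative, with a median log2 of 0.00. Of 12 tested supply genes 11 were negative, with a median log2 of -0.13. Of 12 tested synthesis genes 11 were negative, with a median of -0.16. The supply and synthesis medians were -0.19 and -0.22 on the TPM scale, where all genes stood at -0.06. They were -0.10 and -0.05 without Cd28 KO replicate 3, where 8 of the 12 synthesis genes were negative. The supply median was -0.07 without WT replicate 1 or WT replicate 2, and the synthesis median was -0.26 without Cd28 KO replicate 2. Limma called none of them with or without the block, with 1 at an unadjusted p below 0.05 without the block and 3 with it. Lipa, the lysosomal acid lipase, stood at 492, 483 and 440 FPKM in Cd28 KO and at 528, 531 and 511 FPKM in WT, without overlap (limma adjusted p = 0.9995). Over all tested genes 2.87% were lower in this way. Mgll, which splits monoacylglycerol, stood at 1.69, 2.50 and 1.72 FPKM in Cd28 KO and at 3.33, 5.67 and 1.81 FPKM in WT, where replicate 3 was close to the Cd28 KO level. Scd1, a desaturase, stood at 14.4, 18.9 and 14.8 FPKM in Cd28 KO and at 18.0, 22.5 and 22.9 FPKM in WT with 1 Cd28 KO library above the lowest WT library. Its limma adjusted p was 0.9995 without and 0.391 with the block. Scd2 had a log2 difference of -0.37 and limma adjusted p values of 0.9995 without and 0.311 with the block. The scavenger receptor Cd36, a fatty acid importer, stood at 129 ± 24.9 FPKM in Cd28 KO and 152 ± 21.1 FPKM in WT. Lpl, which frees fatty acids from lipoproteins, stood at 1018, 825 and 968 FPKM in Cd28 KO and at 1141, 1358 and 985 FPKM in WT, with overlapping groups. The PPAR target list shares Cd36, Fabp4 and Lpl with the supply list, and Cpt1a and Acadvl with the members. Of 9 tested PPAR target genes 7 were negative, with a median of -0.11. It was -0.05 without WT replicate 2, -0.24 in replicates 1 and 2 only and 0.08 in replicate 3. On the TPM scale all 9 were negative, with a median of -0.17.

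The TCA cycle, which burns the acetyl-CoA that beta-oxidation yields, had 9 positive and 7 negative genes of 16 and a median log2 of 0.04. On the TPM scale 7 were positive and 9 negative, with a median of -0.02. The median was 0.01 without Cd28 KO replicate 1 or 3 and 0.02 without WT replicate 2. Sdhd, a membrane subunit of succinate dehydrogenase, was higher in every Cd28 KO library, at 67.4, 58.4 and 57.1 FPKM, against 54.1, 56.7 and 56.4 FPKM in WT. It was not called (limma adjusted p = 0.9995). Of the 16 genes, 1 was higher and 1 lower in every Cd28 KO library, against 3.84% and 2.87% of all tested genes.

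**Figure D3:**
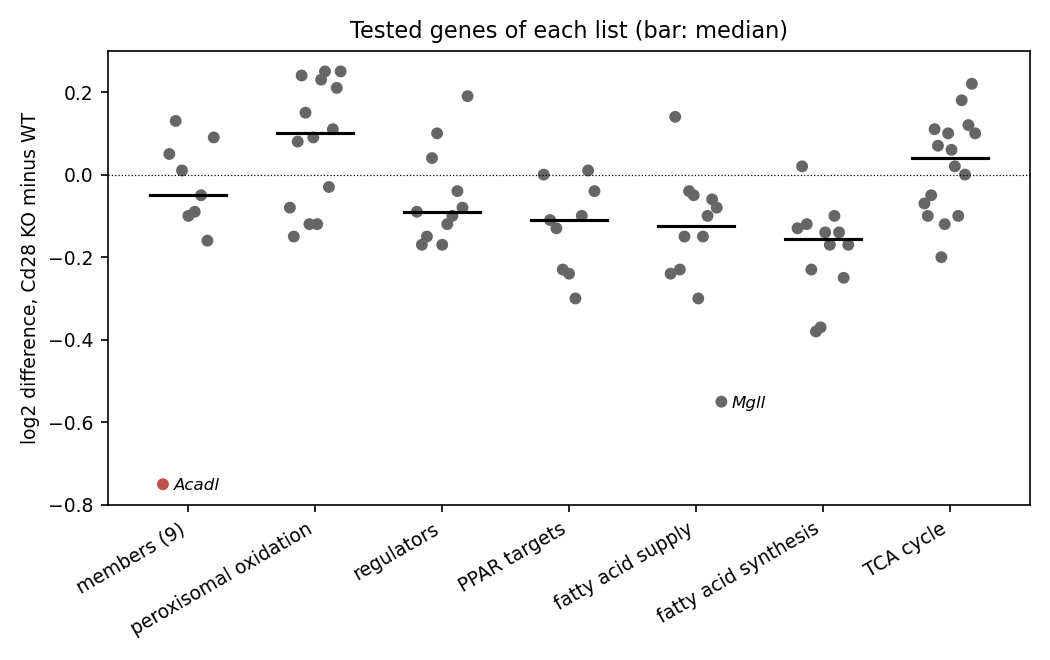
Log2 difference between Cd28 KO and WT (vertical axis) of the tested genes of 7 lists, 1 point per gene, with a bar at the median. Acadl, at -0.75, is the lowest point, Mgll follows at -0.55, and the other points lie between -0.38 and 0.25.

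Acadl differs from the other members in its place in the genome: it is the 1 member on chromosome 1, where Cd28 lies. The end of Cd28 and the start of Acadl are 6.06 Mb apart. The other members lie on chromosomes 3, 4, 5, 11 and 19. Within 2 Mb of Acadl 6 other genes were tested, and their log2 differences ran from -0.17 to 0.04 with overlapping groups in all 6. Kansl1l, the nearest of them, stood at 3.40 ± 0.184 FPKM in Cd28 KO and 3.47 ± 0.496 FPKM in WT, and Lancl1 on the other side at 4.02 ± 0.512 FPKM in Cd28 KO and 4.31 ± 0.485 FPKM in WT (SD, n = 3 each). Rpe, Idh1, Pikfyve and Plekhm3 had differences of 0.04, 0.03, -0.17 and -0.16. Within 10 Mb, a window chosen after the values were seen, 78 other genes were tested. Every Cd28 KO library was lower for 5 of them, Cd28 and Stk11ip included, and higher for 1, where over all tested genes 2.87% were lower and 3.84% higher in this way. Stk11ip alone among the 78 had a more negative difference than Acadl, at -0.92. With the replicate block limma called 1 of the 78, where it called 0.0393% of all tested genes lower and 0.138% higher. Whether the place of Acadl on chromosome 1 bears on its level was not tested.

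**Figure D4:**
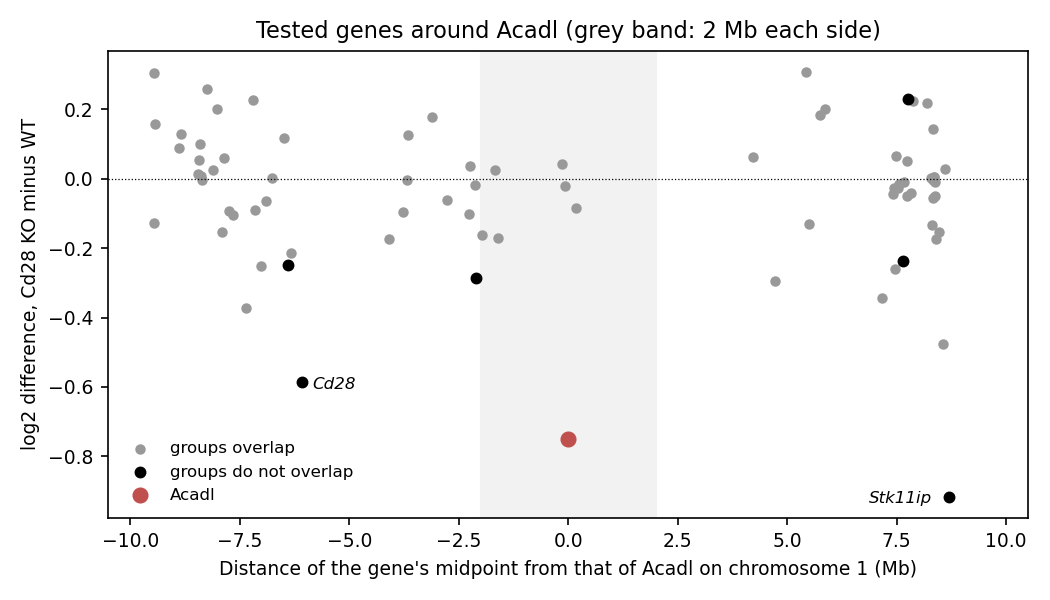
Log2 difference between Cd28 KO and WT (vertical axis) of tested genes within 10 Mb of Acadl on chromosome 1, by distance of their midpoints from that of Acadl in Mb (horizontal axis). Acadl stands at -0.75, while the 6 tested genes within 2 Mb, in the grey band, lie between -0.17 and 0.04.

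The tested genes whose log2 values followed Acadl most closely over the 6 libraries were Ramp1, Btbd11, Bag2, Dio2 and Hvcn1. Their Pearson correlations with Acadl were 0.989, 0.983, 0.977, 0.967 and 0.967, and their Spearman correlations 1.00, 0.829, 0.928, 0.943 and 0.829, given as a description over 6 points that share the split by genotype. All 5 were lower in every Cd28 KO library, against 2.87% of all tested genes, which largely follows from choosing them for likeness to Acadl. Btbd11 averaged 0.723 FPKM in Cd28 KO and 1.34 FPKM in WT, and Bag2 averaged 0.943 FPKM in Cd28 KO and 1.48 FPKM in WT. Both passed the filter of 1 FPKM only through their WT values. Ramp1, an accessory protein of calcitonin family receptors, stood at 2.98, 2.36 and 2.43 FPKM in Cd28 KO and at 5.35, 5.84 and 4.33 FPKM in WT. Dio2, a deiodinase that activates thyroid hormone, stood at 2.59, 2.52 and 2.68 FPKM in Cd28 KO and at 4.42, 6.21 and 3.82 FPKM in WT. Hvcn1, a proton channel, stood at 47.4 ± 0.988 FPKM in Cd28 KO and 55.6 ± 3.13 FPKM in WT (SD, n = 3 each). Ramp1 and Bag2 lie on chromosome 1 and the other 3 genes elsewhere. The closest member was Hadhb, at a Pearson correlation of 0.55 and place 839 of the tested genes, and Acads was the least alike, at -0.60.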

How the data were processed

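RNA sequencing compared Cd28 KO with WT bone marrow-derived macrophages, 3 libraries each, grouped by title. The authors deposited 1 FPKM value per gene and library, made with Bowtie and RSEM on GRCm38 per the submitters' processing notes (without version numbers). Genes missing from a file were counted as 0, and 14551 of 14574 Entrez numbers matched RefSeq, which gave symbols, coordinates and promoters.

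Differences were fitted with limma 3.58.1 in R 4.3.3 (empirical Bayes with trend) on log2(FPKM + 1) over genes averaging at least 1 FPKM, without a block, adjusted by Benjamini-Hochberg over 10172 genes. That scale understates changes of low genes. The members and lists were chosen with earlier results of these data known. Named were all members, list genes that were called, did not overlap or (at most 2 per list) had the smallest p, tested genes within 2 Mb of Acadl and the 5 most like it. Other genes were added as examples after their values were seen. Not every gene the rule named is reported here. Same-numbered libraries deviated together (correlations 0.752, 0.505 and 0.783 across genes), so numbers were taken as pairs, from the data alone. Across numbers, the correlation was 0.535 between Cd28 KO replicate 2 and WT replicate 1 and 0.663 between Cd28 KO replicate 1 and WT replicate 2, so the data set replicate 3 apart but do not show that replicates 1 and 2 pair by number. When Cd28 KO against WT was simulated over the 10172 genes, the fit without a block recovered 8% of genes changed 1.5-fold, 50% at 2-fold and 92% at 4-fold, with the block 34%, 74% and 96%. The fit with the block also called 9 unchanged genes, against 0 without it. The simulation gave same-numbered libraries of both genotypes a shared shift, so better recovery with the block was built in. Changed genes were drawn only from those above a set level, and residual spreads were shuffled across genes. Recovery among the real genes may therefore differ. Alternatives changed pseudocount, filter, scaling, block, batch term and libraries. Tables and figures were made in Python 3.11.15 with Matplotlib 3.10.9, pandas 2.3.3, SciPy 1.17.1 and NumPy 2.4.6.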

Additional observations from a re-analysis of the deposited data

How the results depend on the processing

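Across 15 alternatives, Acadl stayed negative, from -0.83 to -0.67 (the same range without single libraries), and in no setting did another member lie below it. The other 8 members gave 120 values under the alternatives, from -0.34 to 0.23, with 0 called and a smallest limma adjusted p of 0.526. Their median ran from -0.09 to 0.09, also without single libraries. Pathway genes called higher numbered 0 throughout. Those called lower numbered 0, but 1 with the replicate block, 1 with the batch term for replicate 3 and 1 in replicates 1 and 2 only, each time Acadl, whose lower level was the reason for the set, so these counts are no test of it. Leaving out single libraries gave 0 in each direction. The replicate block changed no other call among the members.

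Signs turned 12 times among the near-zero members, and the cause was not tested. On the TPM scale Acadm stood at -0.01 and Acadvl at -0.05. In replicates 1 and 2 only Cpt1a stood at 0.11. Without single libraries Acadm ran from -0.02 to 0.15, Acadvl from -0.09 to 0.09, Cpt1a from -0.21 to 0.09, Cpt2 from -0.34 to 0.09, Hadha from -0.10 to 0.04 and Etfdh from -0.07 to 0.23. The libraries whose absence turned a sign were Cd28 KO replicate 1 for Acadm, Cd28 KO replicate 2 for Acadvl and Etfdh, Cd28 KO replicate 3 for Cpt2 and Hadha, WT replicates 1 and 2 for Cpt2, and WT replicate 3 for Acadvl and Cpt1a. Acads ran from 0.08 to 0.17 and Hadhb from -0.28 to -0.04. Read depth is unknown, and in the simulation, at 3 libraries a group, a 1.5-fold change was mostly missed.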
